A study of Arabidopsis thaliana with 36 samples.

Results

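The xyloglucan endotransglucosylase/hydrolases (XTHs) of Arabidopsis thaliana were followed by RNA sequencing through 12 groups of root libraries. The family was taken as the loci named XTH1 to XTH33 that had at least 10 counts summed over the 36 libraries. Of the 33 loci, 31 met this rule, and XTH1 and XTH3 had 1 count each. Of the 31 members, 29 had enough counts to be tested. XTH6, with 30 counts in all, and XTH25, with 14, did not. The count table held 24532 genes, of which 20354 were tested.

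The 3 genotypes were IMA1ox, a line carrying UBQ10::mCitrine-IMA1, the receptor mutant fls2, and Col-0 wild type (WT). IMA1ox expresses the small Fe-signalling peptide IMA1, joined to a fluorescent protein, from a promoter that is active in most tissues, so its IMA1 is not limited to the cells that normally make it. FLS2 is the surface receptor for flg22, a peptide of bacterial flagellin that sets off pattern-triggered immunity. Each genotype had 4 treatments of 3 libraries. They were -Fe with flg22 (50 µM of the Fe chelator FerroZine and 100 nM flg22), -Fe alone (50 µM FerroZine), +Fe with flg22 (75 µM Fe and 100 nM flg22) and +Fe alone (75 µM Fe). All seedlings were grown with Fe, were 7 days old at transfer to liquid medium and were treated for 24 h. A library came from a pool of about 15 roots, and p-values measure the spread between such pools.

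XTHs act in the cell wall on xyloglucan, the polymer that coats and tethers cellulose. An enzyme of this family cuts a xyloglucan chain and joins the cut end to another chain, or to water, which loosens, remodels or trims the wall while a cell grows or matures. In roots, different members are known from the elongation zone, from root hairs and from the vascular tissue. Most members are thought to act mainly as transferases, and XTH31 and XTH32 belong to the small branch of the family in which hydrolase activity is known.

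Library totals ran from 28130566 to 40903411 counts. FLS2 itself had 0 counts in all 6 fls2 libraries without flg22 and at most 0.0863 CPM (counts scaled to library size by the TMM method) in those with flg22, against 0.783 to 7.35 CPM in WT. IMA1 ran from 306 to 471 CPM in IMA1ox, against 1.97 to 18.7 CPM in WT. The first library of IMA1ox -Fe with flg22 stood apart from its group. In it the flg22 marker FRK1 had 2.14 CPM, against 27.9 and 24.3 CPM in the 2 other libraries of the group, and its mean correlation with them was 0.984, the lowest of the 36 libraries. The third WT -Fe library had the next lowest, 0.986, close to 0.987 in both other libraries of IMA1ox -Fe with flg22. The 2 libraries with the lowest correlations are called below the 2 that stood apart, a name given by rank only. Where leaving out both libraries ended a call named here, the value without them or without the first of them is given. Some calls gained without them are given as well. Root hair markers (8 genes, 189 to 831 summed CPM) and endodermis markers (5 genes, 63.8 to 199 summed CPM) were present in every library. Markers of green shoot tissue (11 genes) summed to 88.7 to 491 CPM, and 1 of the 11 was at 0 in WT +Fe and in fls2 +Fe with flg22.

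Levels of different members were compared as CPM per kb of the longest transcript. In WT +Fe roots, XTH31 (AT3G44990), a member of the hydrolase branch whose loss is known to make roots more tolerant of aluminium, was the most abundant member at 402.6 CPM per kb (mean of 3). Next came XTH14 (AT4G25820), an enzyme known from root hairs, at 163 CPM per kb, and then XTH15 at 74.2 CPM per kb and XTH4 (AT2G06850), known from xylem cells, at 66.4 CPM per kb. The libraries of XTH31 did not overlap those of XTH14, nor those of XTH14 those of XTH15, whereas XTH15 and XTH4 overlapped. XTH8, XTH17 and XTH18 followed at 47.9, 45.3 and 45.0 CPM per kb without a gap between them. A run of 7 members from XTH20 (35.2 CPM per kb) to XTH27 (27.8 CPM per kb) had neighbours that overlapped throughout. XTH10 and XTH22 were at 3.06 and 1.80 CPM per kb, and XTH11, XTH2, XTH29, XTH25 and XTH6 at 0.126 CPM per kb or less. XTH6 had no count in WT +Fe.

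**Figure D1:**
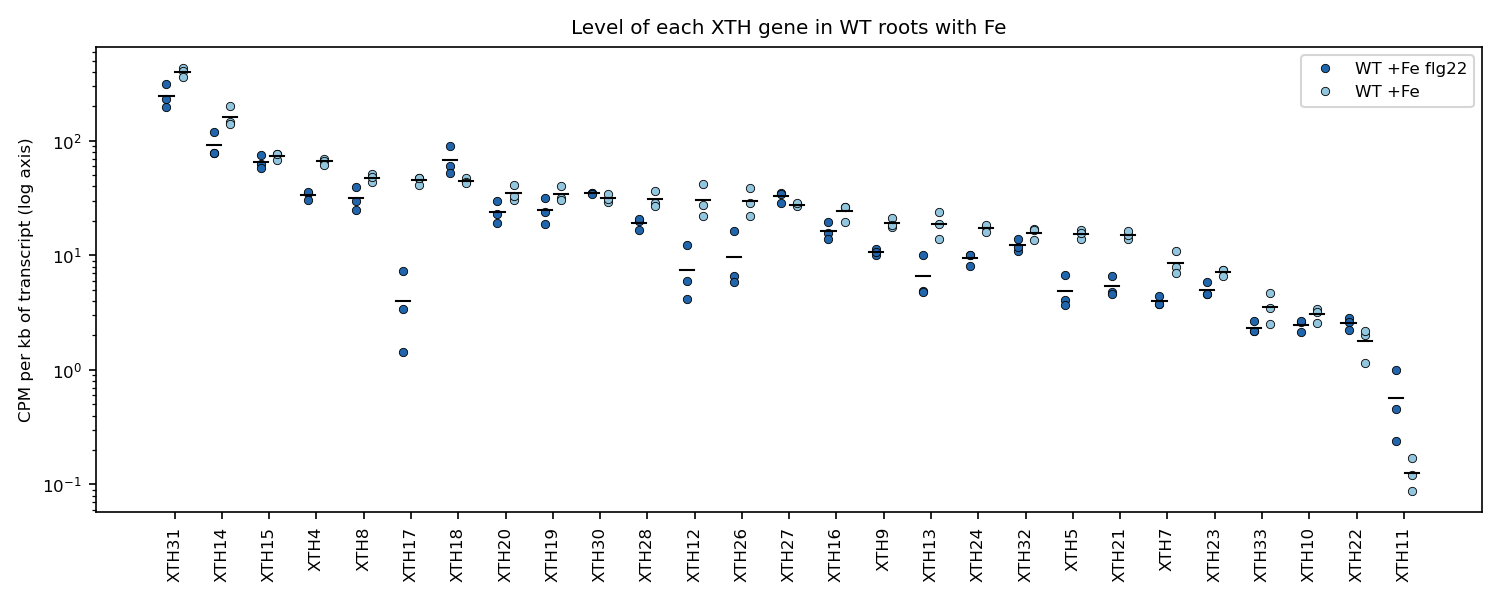
Level of each XTH gene above 0.1 CPM per kb in WT +Fe roots, in WT +Fe with flg22 (dark points) and WT +Fe (light points), in CPM per kb of transcript on a log axis. Points are libraries and bars are means of 3. XTH31 is the most abundant member in both groups, and the widest gap between the groups is at XTH17.

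Summed over the 31 members, the family stood at 779 ± 133 CPM per kb in WT +Fe with flg22, against 1215 ± 105 CPM per kb in WT +Fe (SD, n = 3 each). Without Fe the sums were 854 ± 60.5 CPM per kb in WT with flg22 and 1250 ± 154 CPM per kb in WT without it. Neither pair of groups overlapped. The fls2 sums stayed between 1129 and 1381 CPM per kb in all 12 libraries of that genotype. In IMA1ox the sum was 745 ± 134 CPM per kb in -Fe with flg22, against 1212 ± 53.8 CPM per kb in -Fe, and 669 ± 18.2 CPM per kb in +Fe with flg22, against 885 ± 42.5 CPM per kb in +Fe. XTH31 made up 21.9% of the sum in IMA1ox +Fe and 33.1% in WT +Fe.

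The effect of flg22 in WT roots was a loss of XTH transcripts. With Fe, 17 of the 29 tested members fell and 3 rose, 69% of those tested, against 40.1% of all genes tested (19.4% fell and 20.8% rose). Without Fe, 14 fell and 3 rose, 58.6% of those tested, against 35% of all genes (16.8% fell and 18.2% rose). Calls are adjusted p under 0.05 by the edgeR quasi-likelihood test with Benjamini-Hochberg adjustment over all genes tested. The median log2 fold change of the 29 members was -0.60 with Fe and -0.50 without, against 0.01 and 0.00 for all genes tested. Of the members that fell, 13 did so in both media, which is 13 of 17 with Fe and 13 of 14 without. The groups did not overlap for 18 of the 20 called members with Fe and 16 of the 17 without. Neither the sharing between media nor the lack of overlap was counted over all genes, so neither is read as particular to the family.

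**Figure D2:**
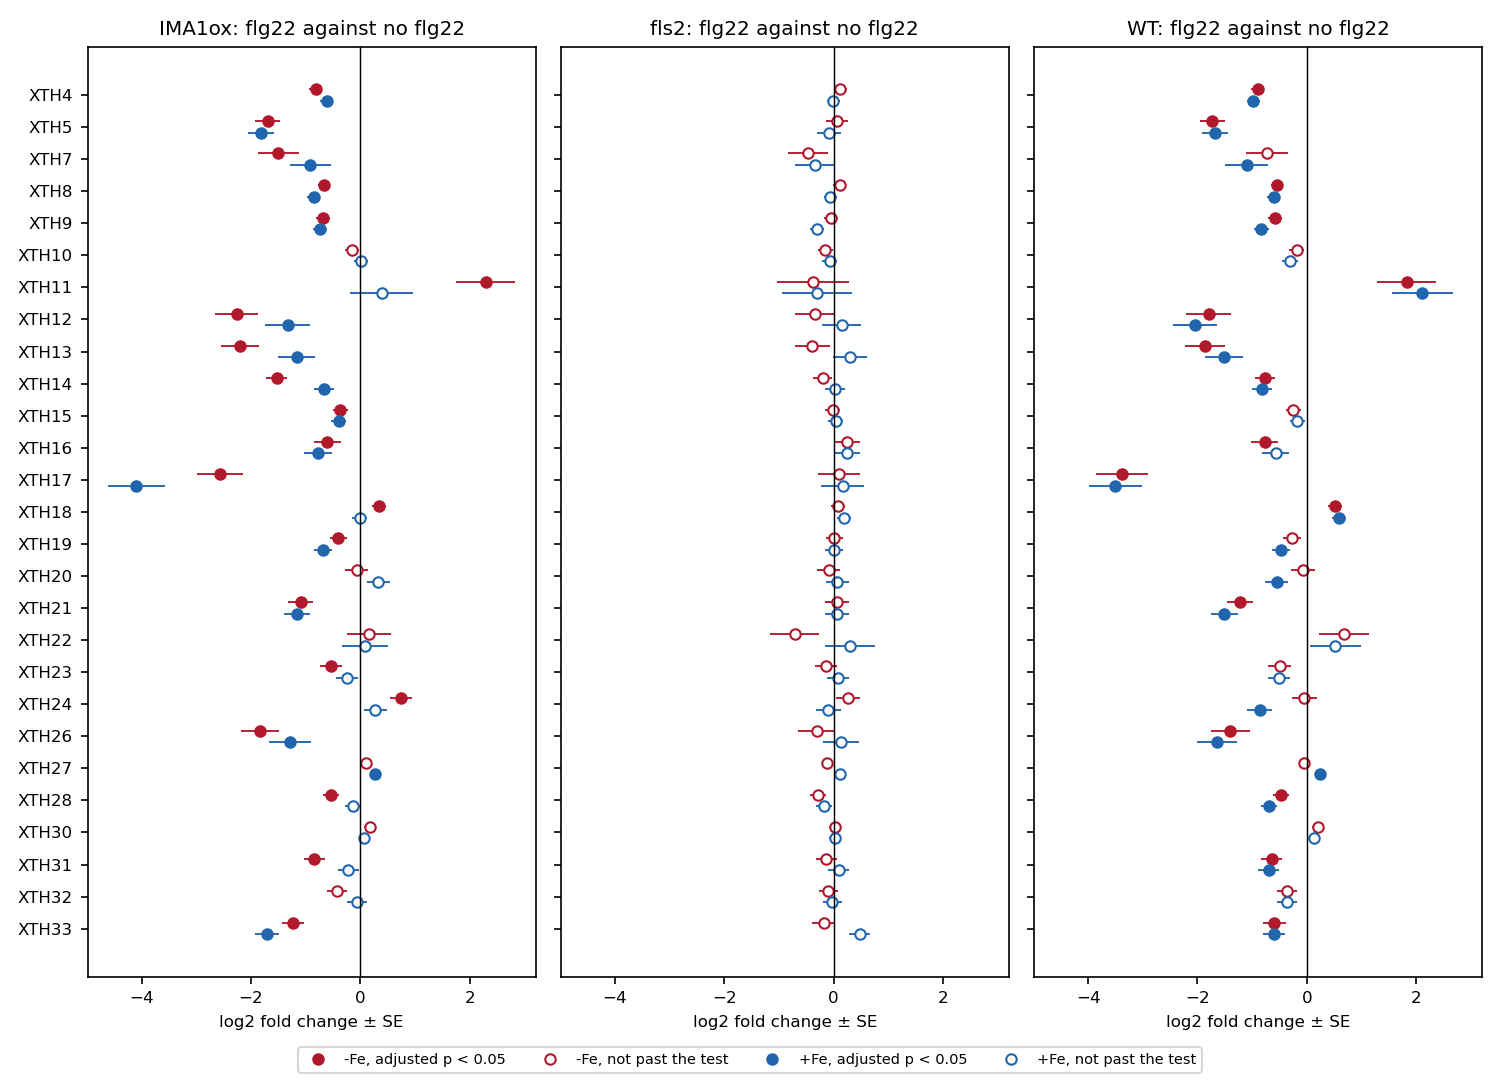
Log2 fold change for flg22 against no flg22 in IMA1ox, fls2 and WT roots, without Fe (red) and with Fe (blue), for 27 of the 29 tested XTH genes; XTH2 and XTH29, with few counts, are left out. Bars are standard errors, and filled points passed the edgeR test. Most points lie left of 0 in IMA1ox and WT, XTH17 farthest, and no fls2 point is filled.

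XTH17 to XTH20 are closely related enzymes that are active in different zones of the root, and flg22 moved them apart. XTH17 (AT1G65310) had 4.11, 1.74 and 8.88 CPM in WT +Fe with flg22, against 58.1, 50.0 and 57.4 CPM in WT +Fe. Without Fe it had 5.58, 4.88 and 4.80 CPM in WT with flg22, against 55.0, 48.9 and 55.2 CPM in WT without it. All 6 flg22 libraries were far below all 6 others. Its log2 fold change was -3.50 ± 0.48 with Fe and -3.38 ± 0.47 without (SE, edgeR adjusted p = 5.99e-06 and 8.30e-06), the largest fall in the family in both. With Fe, leaving out the third flg22 library gave -4.26.

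XTH18 (AT4G30280), known to be needed for elongation of root epidermal cells, went the other way. It had 76.9, 66.5 and 114 CPM in WT +Fe with flg22, against 60.5, 55.4 and 54.5 CPM in WT +Fe, and 135, 98.5 and 117 CPM in WT -Fe with flg22, against 82.2, 78.4 and 83.0 CPM in WT -Fe. Every flg22 library was above its untreated group. The log2 fold changes were 0.60 ± 0.13 and 0.52 ± 0.13 (edgeR adjusted p = 0.000803 and 0.0026). With only the 2 groups compared in the edgeR fit, the call with Fe was lost (0.59, adjusted p = 0.0845). XTH18 averaged 64.6 CPM in IMA1ox +Fe with flg22, against 65.3 CPM in IMA1ox +Fe. In IMA1ox -Fe it averaged 109 CPM with flg22, against 86.2 CPM without. In fls2 +Fe it averaged 69.1 CPM with flg22, against 60.7 CPM without, and in fls2 -Fe 70.8 against 67.1 CPM. Its flg22 effect in fls2 against WT did not pass the main edgeR test in either medium. XTH19 and XTH20 moved less. XTH19 changed by -0.47 ± 0.16 with Fe, past the test, and by -0.27 ± 0.16 without, not past it, and XTH20 by -0.55 ± 0.22, past the test, and -0.07 ± 0.22, not past it. XTH19 had overlapping groups with Fe, and the calls of both rested on single libraries. XTH19 lost its call without WT +Fe replicate 1 (-0.34), or without replicate 1 (-0.45) or 2 (-0.32) of WT +Fe with flg22. XTH20 lost it without WT +Fe replicate 2 (-0.43) or 3 (-0.60), or without replicate 1 (-0.42) or 2 (-0.54) of WT +Fe with flg22. Both calls were also lost with only the 2 groups compared in the edgeR fit (adjusted p = 0.145 for XTH19 and 0.0686 for XTH20).

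XTH5 (AT5G13870) and XTH21 (AT2G18800) both fell. XTH5 had 7.84, 7.14 and 12.98 CPM in WT +Fe with flg22, against 32.3, 26.7 and 30.1 CPM in WT +Fe, and 9.98, 10.4 and 9.63 CPM in WT -Fe with flg22, against 31.5, 33.99 and 34.2 CPM in WT -Fe. XTH21, known to be needed for growth of the primary root, had 5.78, 5.51 and 7.93 CPM in WT +Fe with flg22, against 16.8, 18.1 and 19.7 CPM in WT +Fe, and 9.92, 9.20 and 7.91 CPM in WT -Fe with flg22, against 22.3, 19.2 and 21.8 CPM in WT -Fe. For both genes the flg22 libraries lay below all libraries without flg22, with no overlap. The log2 fold changes were -1.68 ± 0.23 and -1.73 ± 0.23 for XTH5 with and without Fe, and -1.51 ± 0.25 and -1.23 ± 0.24 for XTH21 (edgeR adjusted p from 2.87e-06 to 0.000289). These calls held whichever library was left out.

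**Figure D3:**
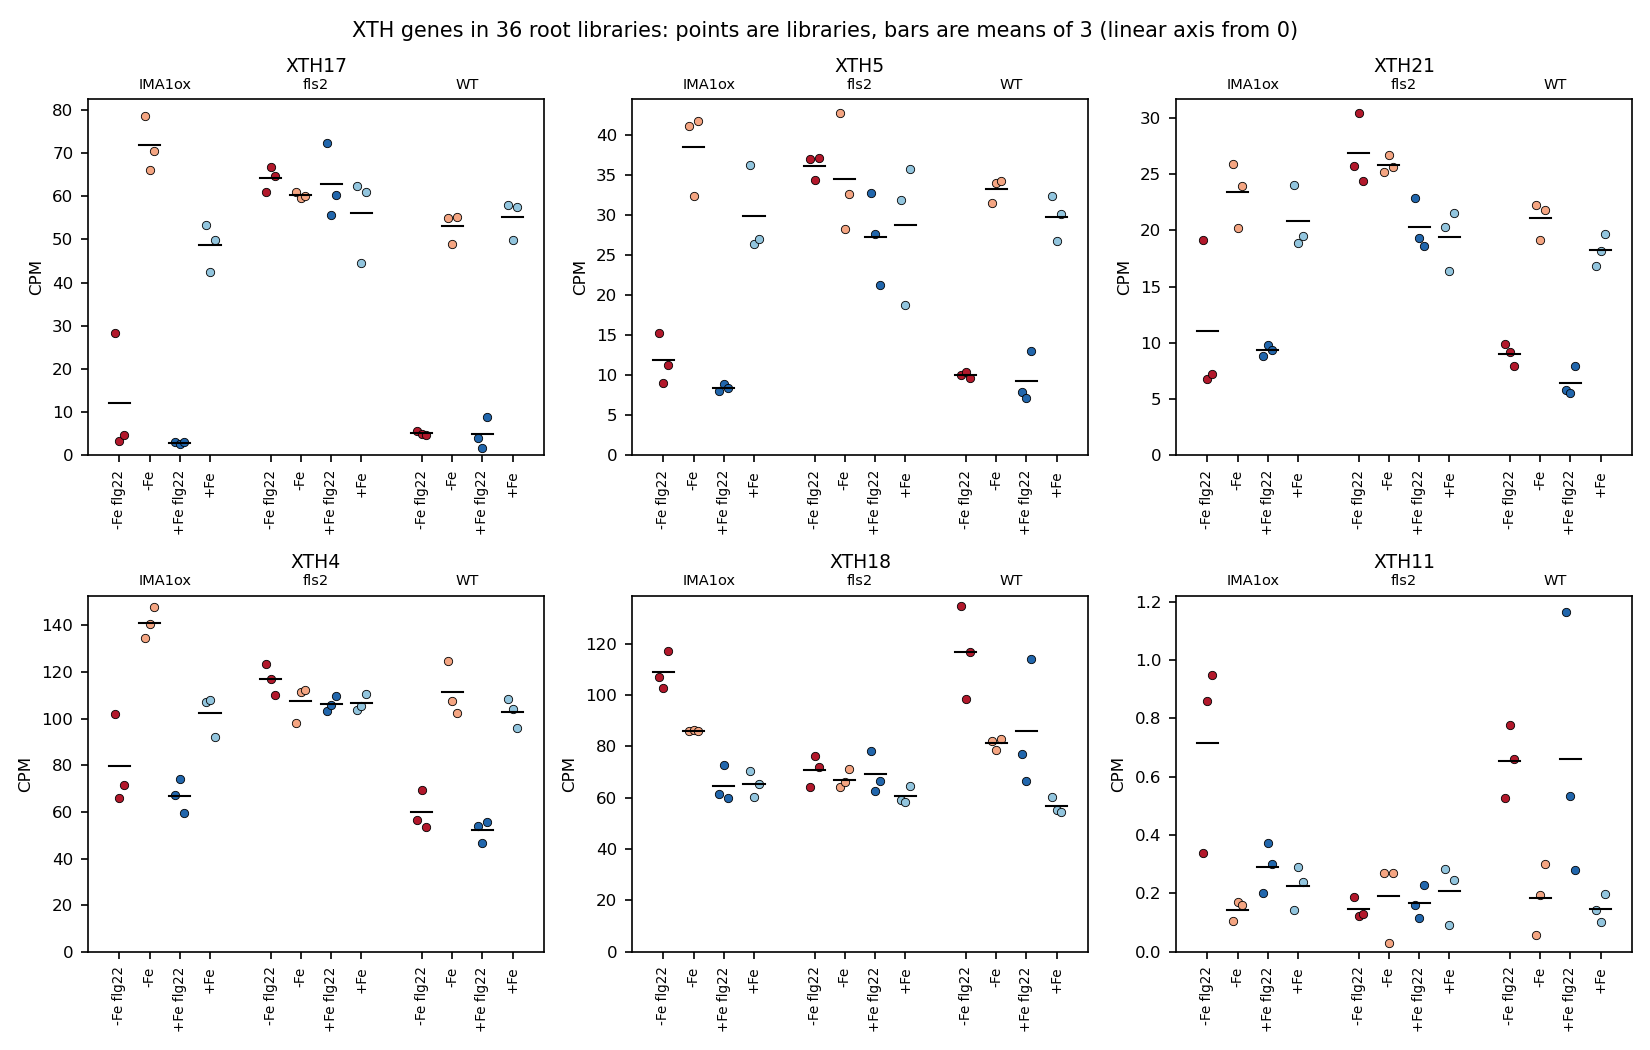
CPM of XTH17, XTH5, XTH21, XTH4, XTH18 and XTH11 in each of the 36 libraries, on linear axes from 0. Points are libraries and bars are means of 3, with genotypes from IMA1ox to WT and treatments named under the axis. XTH17, XTH5, XTH21 and XTH4 are low in the flg22 groups of IMA1ox and WT and level in fls2, and XTH18 is high in WT -Fe with flg22.

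All 4 root hair members fell in both media. XTH14 and XTH26 (AT4G28850) are enzymes described from root hairs, and transcripts of XTH12 (AT5G57530) and XTH13 (AT5G57540) are known from root hair cells. XTH12 had 6.84, 4.74 and 14.1 CPM in WT +Fe with flg22, against 48.3, 31.7 and 25.1 CPM in WT +Fe, and 5.30, 8.42 and 8.63 CPM in WT -Fe with flg22, against 28.9, 25.4 and 23.3 CPM in WT -Fe. XTH13 had 5.48, 5.31 and 11.2 CPM in WT +Fe with flg22, against 26.3, 20.7 and 15.6 CPM in WT +Fe, and 3.47, 4.85 and 5.77 CPM in WT -Fe with flg22, against 19.3, 16.8 and 15.0 CPM in WT -Fe. In both genes the third WT +Fe library with flg22 was the highest of its group and the third WT +Fe library the lowest of its own, yet the groups did not overlap. XTH26 had 7.87, 6.87 and 19.3 CPM in WT +Fe with flg22, against 46.1, 33.7 and 26.2 CPM in WT +Fe, and 8.65, 9.48 and 13.3 CPM in WT -Fe with flg22, against 32.1, 24.6 and 25.8 CPM in WT -Fe. XTH14, the most abundant of the 4, had 91.3, 91.8 and 139 CPM in WT +Fe with flg22, against 238, 170 and 163 CPM in WT +Fe, and 102, 81.9 and 110 CPM in WT -Fe with flg22, against 164, 157 and 177 CPM in WT -Fe. Neither of these genes had overlapping groups. With Fe the log2 fold changes were -2.04 ± 0.40 for XTH12, -1.51 ± 0.34 for XTH13, -1.64 ± 0.36 for XTH26 and -0.83 ± 0.18 for XTH14, and without Fe -1.80 ± 0.41, -1.86 ± 0.36, -1.40 ± 0.36 and -0.76 ± 0.18 in the same order of genes (edgeR adjusted p from 0.000302 to 0.00414). Leaving out the third WT +Fe library with flg22 gave -2.27 for XTH26 with Fe. With only the 2 groups compared in the fit, the XTH26 call with Fe was lost (-1.65, adjusted p = 0.0638).

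The root hair marker genes moved with these members. Of 8 markers, 6 fell for flg22 in WT +Fe and 4 in WT -Fe, and none rose. Their summed level was 318 to 509.5 CPM in WT +Fe with flg22, against 584 to 831 CPM in WT +Fe, and 359.9 to 417 CPM in WT -Fe with flg22, against 585 to 623 CPM in WT -Fe. None of the 8 was at 0 in any group. Of all genes, 19.4% fell and 20.8% rose with Fe, and 16.8% fell and 18.2% rose without. All 5 endodermis markers fell in both media as well, to 70.0 to 91.7 summed CPM in WT +Fe with flg22, against 135 to 148 CPM in WT +Fe, and to 79.0 to 100.2 CPM in WT -Fe with flg22, against 138 to 199 CPM in WT -Fe. Green shoot markers rose for 3 of 11 genes with Fe and 4 of 11 without, to 228 to 334 summed CPM in WT +Fe with flg22, against 162 to 213 CPM in WT +Fe, and to 218 to 491 CPM in WT -Fe with flg22, against 123 to 216 CPM in WT -Fe. Stele markers summed to 171 to 185 CPM in WT +Fe with flg22, against 181 to 187 CPM without. In WT -Fe they were 168 to 179 CPM with flg22, against 154 to 171 CPM without. Root cap markers summed to 22.99 to 26.5 CPM in WT +Fe with flg22, against 16.7 to 23.2 CPM without. In WT -Fe these were 21.2 to 23.7 CPM with flg22, against 19.9 to 26.2 CPM without. Each pair overlapped. Of 3 stele markers 1 rose without Fe, and of 3 root cap markers 1 rose with Fe and 1 fell without. The part of all these markers in the XTH changes was not tested. In whole roots fewer cells of a type cannot be told apart from less RNA per cell.

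**Figure D4:**
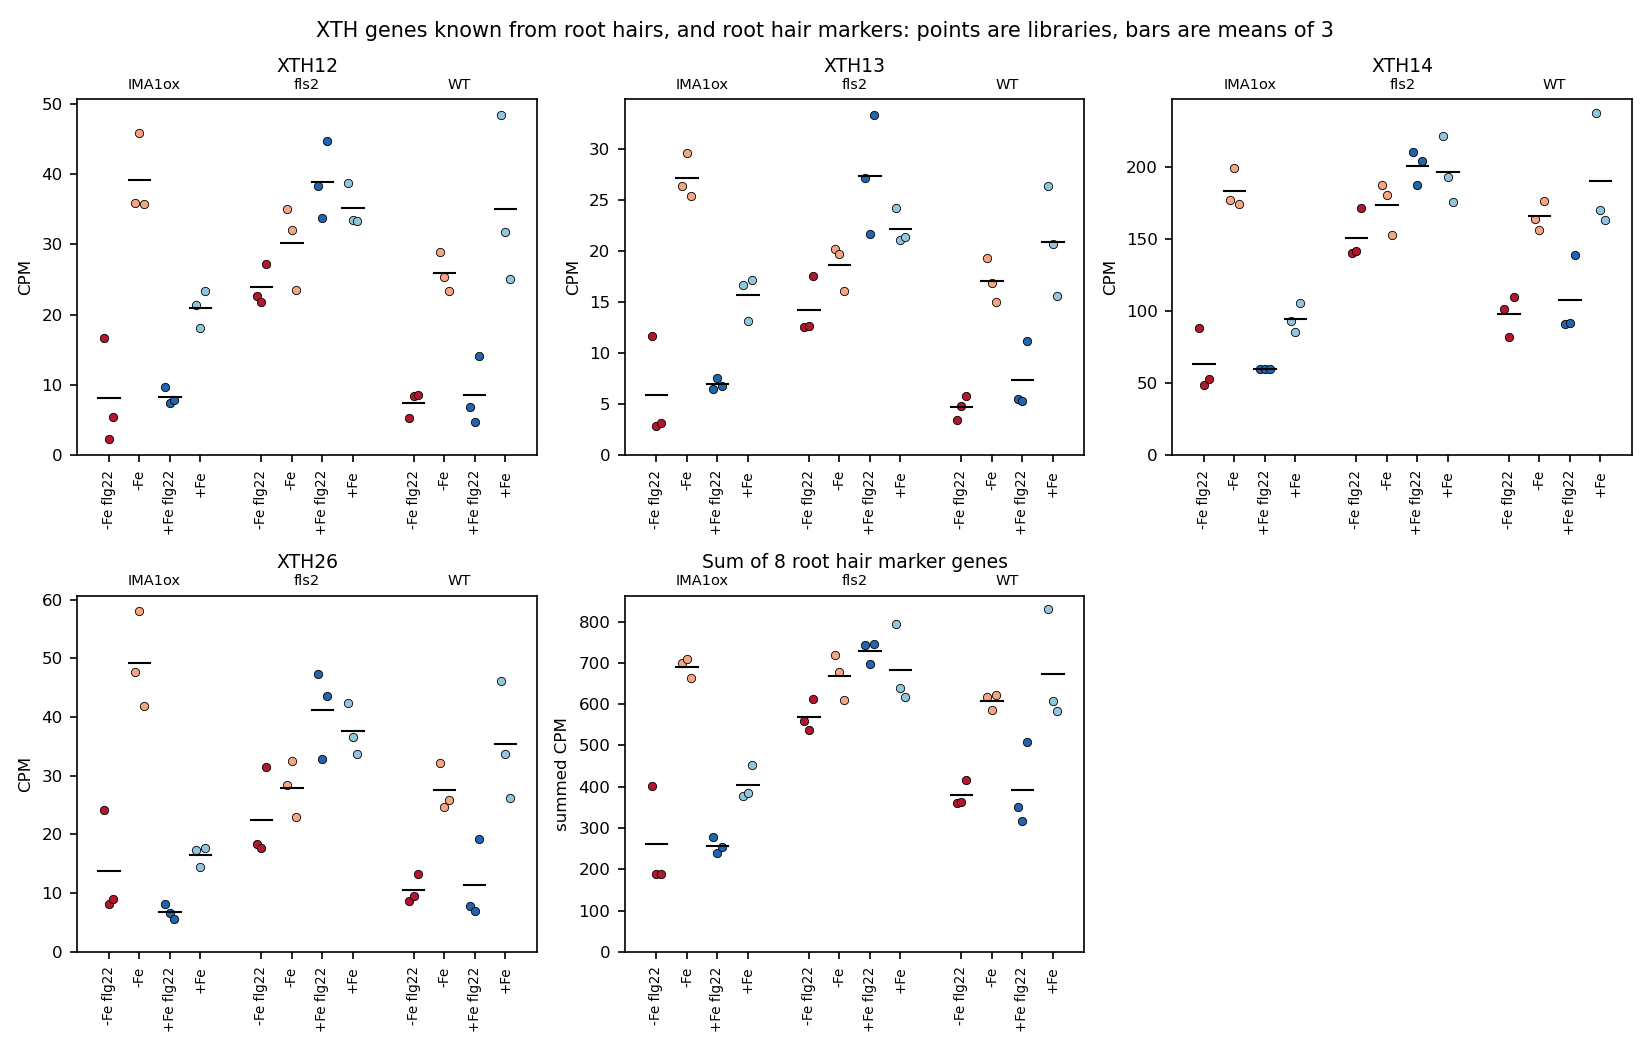
CPM of XTH12, XTH13, XTH14 and XTH26, and the summed CPM of 8 root hair marker genes, in each of the 36 libraries, on linear axes from 0. Points are libraries and bars are means of 3. All 5 panels are low in the flg22 groups of IMA1ox and WT, and IMA1ox +Fe lies below IMA1ox -Fe in each.

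Members known from vascular tissue split. XTH4 and XTH9 take part in xylem and secondary growth. XTH4 had 53.9, 46.9 and 55.7 CPM in WT +Fe with flg22, against 108, 104 and 95.8 CPM in WT +Fe, and 56.4, 69.5 and 53.6 CPM in WT -Fe with flg22, against 125, 108 and 102 CPM in WT -Fe. Its groups were clear of each other, and the log2 fold changes were -0.98 ± 0.12 and -0.90 ± 0.12 (edgeR adjusted p = 5.41e-07 and 1.76e-06). XTH9 fell by 0.83 ± 0.13 on the log2 scale with Fe and by 0.58 ± 0.13 without. XTH27, known from developing tracheary elements, changed by 0.24 ± 0.07 with Fe and -0.06 ± 0.07 without. The first of these passed the test (edgeR adjusted p = 0.0113) and lost the call without WT +Fe replicate 2 (0.20) or without replicate 1 (0.17) or 2 (0.19) of WT +Fe with flg22.

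XTH31, the most abundant member, had 275, 327 and 435 CPM in WT +Fe with flg22, against 602, 572 and 509 CPM in WT +Fe, and 362, 377 and 473 CPM in WT -Fe with flg22, against 821, 655 and 414 CPM in WT -Fe. The groups with Fe did not overlap. Those without Fe did, because the third WT -Fe library, one of the 2 with the lowest correlations, was below the highest flg22 library. The log2 fold changes were -0.70 ± 0.19 and -0.64 ± 0.19 (edgeR adjusted p = 0.00527 and 0.0109), and the second lost its call without WT -Fe replicate 1 (-0.42) or with only the 2 groups compared in the fit (-0.64, adjusted p = 0.153). XTH32, of the same branch, changed by -0.36 ± 0.18 in both media and did not pass the test. Without the 2 libraries that stood apart it passed in WT -Fe (-0.60, edgeR adjusted p = 0.00505), as did XTH30 (0.38, adjusted p = 0.00437, against 0.20 and no call with all libraries). XTH31 changed by -0.87 there without them and kept its call.

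Among the rest, XTH8 and XTH28, known from stamen filaments, fell in both media by 0.47 to 0.69 on the log2 scale, and XTH24, first described as a gene of the meristem, fell by 0.86 ± 0.23 with Fe and changed by -0.05 ± 0.23 without. The difference between these 2 effects of XTH24 was 0.82 ± 0.32 (edgeR adjusted p = 0.472). XTH28 lost its call in WT -Fe without WT -Fe replicate 1 (-0.37) or without replicate 1 of WT -Fe with flg22 (-0.43). XTH33, which is anchored in the plasma membrane, changed by -0.61 ± 0.20 with Fe, where its groups overlapped, and by -0.60 ± 0.21 without. It lost the call with Fe without WT +Fe replicate 1 (-0.38) or replicate 2 of WT +Fe with flg22 (-0.57), and without Fe on leaving out WT -Fe replicate 2 (-0.36) or any 1 flg22 library (-0.58 to -0.62). Both XTH33 calls were lost with only the 2 groups compared in the edgeR fit (adjusted p = 0.0539 with Fe and 0.0714 without). XTH16 changed by -0.77 ± 0.24 in WT -Fe, past the test except without WT -Fe replicate 3 (-0.63) or replicate 3 of its flg22 group (-0.70), and by -0.57 ± 0.25 in WT +Fe, not past it except without the 2 libraries that stood apart (-0.57, adjusted p = 0.037).

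XTH7 had 4.86, 4.87 and 5.72 CPM in WT +Fe with flg22, against 10.2, 13.95 and 9.09 CPM in WT +Fe, and 4.74, 8.76 and 6.53 CPM in WT -Fe with flg22, against 18.3, 9.48 and 5.22 CPM in WT -Fe. The groups were apart with Fe and overlapped without, where the untreated libraries spread widely. The log2 fold change with Fe was -1.10 ± 0.40 (edgeR adjusted p = 0.0287), and the call was lost without WT +Fe replicate 2 (-0.92) or without replicate 1 or 2 of its flg22 group (-1.07 in each case). Without Fe it was -0.73 ± 0.38 and not past the test, and -1.06 and past it without the 2 libraries that stood apart.

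A pair of scarce members rose. XTH11 (AT3G48580) had 1.16, 0.534 and 0.281 CPM in WT +Fe with flg22, from 34, 16 and 8 counts, against 0.143, 0.102 and 0.198 CPM in WT +Fe, from 5, 3 and 7 counts. Without Fe it had 0.527, 0.777 and 0.659 CPM with flg22 and 0.0591, 0.196 and 0.301 CPM without flg22. No groups overlapped; no library exceeded 34 counts. The log2 fold changes were 2.11 ± 0.56 and 1.83 ± 0.54 (edgeR adjusted p = 0.00332 and 0.00903). The call with Fe was lost without the first WT +Fe library with flg22 (1.42), and that without Fe was lost without WT -Fe replicate 1 (1.37). XTH29 (AT4G18990) had 14, 6 and 7 counts in WT -Fe with flg22, against 0, 0 and 4 counts in WT -Fe, or 0.434, 0.186 and 0.220 CPM against 0, 0 and 0.134 CPM. The groups did not overlap. The fitted change was 2.62 ± 0.9995 (edgeR adjusted p = 0.0431). It was not past the test by DESeq2, with the replicate block (2.61, adjusted p = 0.0517), nor in edgeR without WT -Fe replicate 1 (2.01) or 2 (2.07) or without replicate 1 (2.15) or 3 (2.75) of the flg22 group, and it was 6.24 without WT -Fe replicate 3. In WT +Fe, XTH29 changed by 1.60 ± 1.07 and did not pass.

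In fls2 roots, which lack the receptor, no XTH gene passed the test for flg22 in either medium, and neither did any other gene, 0% of the 20354 tested. By edgeR, 2 of the 29 members had an unadjusted p under 0.05 with Fe and 0 without, and DESeq2 called 0 in both. XTH17 had 72.4, 55.8 and 60.4 CPM in fls2 +Fe with flg22, against 62.4, 44.6 and 61.1 CPM in fls2 +Fe, and 61.0, 66.9 and 64.7 CPM in fls2 -Fe with flg22, against 60.9, 59.7 and 60.0 CPM in fls2 -Fe. Those values lie at the level of untreated WT. Its log2 fold changes were 0.16 ± 0.39 and 0.09 ± 0.39.

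The difference in the flg22 effect between fls2 and WT was tested directly. With Fe it passed the test for 13 of 29 members (12 higher in fls2 and 1 lower), against 20.2% of all genes (9.86% higher and 10.4% lower). Without Fe it passed for 8 (all higher in fls2), against 21.2% of all genes (10.2% higher). XTH17 had the largest difference in both, 3.67 ± 0.62 and 3.47 ± 0.61, and XTH4 the smallest adjusted p, 0.000248 and 0.000112 (edgeR). XTH4, XTH5, XTH8, XTH9, XTH13, XTH17 and XTH21 passed in both media. Leaving out the third WT +Fe library with flg22 gave 4.42 for XTH17 and 2.41 for XTH26 with Fe, where all libraries gave 1.78 for XTH26. With Fe, XTH4, XTH5, XTH12, XTH13, XTH17, XTH21, XTH26 and XTH33 kept their call whichever library was left out, and without Fe XTH4, XTH5, XTH8, XTH17 and XTH21 did. With Fe, XTH8 lost the call without WT +Fe replicate 1 (0.50), WT +Fe flg22 replicate 1 (0.51) or 2 (0.41), or fls2 +Fe replicate 2 (0.43). XTH14 lost it without WT +Fe replicate 1 (0.67) or WT +Fe flg22 replicate 1 or 2 (0.76 each). XTH9 lost it without WT +Fe replicate 2, WT +Fe flg22 replicate 1 or 2, fls2 +Fe replicate 1 or 3, or any fls2 +Fe flg22 library (0.43 to 0.57). XTH31 lost it without WT +Fe replicate 1 or 2, WT +Fe flg22 replicate 1 or 2, fls2 +Fe replicate 1 or 3, or fls2 +Fe flg22 replicate 2 or 3 (0.66 to 0.79). XTH11 lost it without WT +Fe flg22 replicate 1 (-1.72) or 2 (-2.54), WT +Fe replicate 1 or 2, fls2 +Fe replicate 1 or 3, or fls2 +Fe flg22 replicate 1 or 2 (-2.11 to -2.37). Without Fe, XTH9 lost the call without WT -Fe replicate 2, WT -Fe flg22 replicate 1, fls2 -Fe replicate 1 or 3, or fls2 -Fe flg22 replicate 1 or 2 (0.49 to 0.53). XTH13 lost it without WT -Fe replicate 1, WT -Fe flg22 replicate 1 or 2, fls2 -Fe replicate 3, or fls2 -Fe flg22 replicate 3 (1.31 to 1.51), and XTH16 without replicate 2 or 3 of WT -Fe, WT -Fe flg22 or fls2 -Fe, or replicate 1 or 2 of fls2 -Fe flg22 (0.88 to 1.05). Leaving out WT +Fe flg22 replicate 1 gave 8 called members with Fe, and leaving out fls2 -Fe replicate 3 gave 5 without Fe. Without the 2 libraries that stood apart 12 members passed without Fe, the 4 added being XTH11 (-2.73), XTH12 (1.53), XTH22 (-1.42) and XTH31 (0.74). With only the 4 groups compared in the edgeR fit, XTH8 and XTH14 lost their calls with Fe (adjusted p = 0.111 and 0.0566).

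For the flg22 effect in fls2 against WT, 5 of 5 endodermis markers were higher in both media, and root hair markers were higher for 4 of 8 with Fe and 2 of 8 without, while 2 of 11 green shoot markers were lower without Fe. Of all genes, 9.86% were higher with Fe and 10.2% without, where 21.2% were called in either direction. Root hair markers summed to 536 to 795 CPM over all fls2 libraries and endodermis markers to 114 to 166 CPM, with none at 0. Stele markers summed to 160 to 193 CPM and root cap markers to 13.6 to 28.8 CPM over all fls2 libraries. The part of all these markers in the XTH differences was not tested.

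Without flg22, no XTH gene passed the edgeR test between fls2 and WT in either medium. The edgeR counts at an unadjusted p under 0.05 were 2 with Fe and 4 without, DESeq2 called 0 in both, and 0.0197% and 0.103% of all genes were called.

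Fe deficiency by itself changed few XTH genes. In WT, XTH18 was the only member past the edgeR test, 3.45% of those tested, against 5.97% of all genes (3.12% higher). Its untreated values, given above, were 82.2, 78.4 and 83.0 CPM in WT -Fe, against 60.5, 55.4 and 54.5 CPM in WT +Fe. The 2 groups lay apart, with a log2 fold change of 0.52 ± 0.13 (edgeR adjusted p = 0.0148). The call was lost without WT +Fe replicate 2 (0.49) or 3 (0.48), without WT -Fe replicate 3 (0.49), or without both libraries that stood apart (0.50). The control gene IRT1, the root Fe transporter, had 1689, 1225 and 1166 CPM in WT -Fe, against 181, 362 and 119 CPM in WT +Fe.

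In WT with flg22 no member passed for Fe deficiency by edgeR (4 at an unadjusted p under 0.05, 0 by DESeq2), against 0.138% of all genes. In fls2 none passed (1 at an unadjusted p under 0.05, 0 by DESeq2), against 2.12%. In fls2 with flg22, XTH33 changed by -0.90 ± 0.20 (edgeR adjusted p = 0.00426) and XTH27 by -0.28 ± 0.07 (0.0207), which is 2 of 29 members, against 5.3% of all genes (3.22% lower). XTH27 lost its call without replicate 2 (-0.27) or 3 (-0.26) of fls2 +Fe with flg22, or without any 1 library of fls2 -Fe with flg22 (-0.28 in each case). The flg22 effect in WT differed between -Fe and +Fe for no member by edgeR (2 at an unadjusted p under 0.05, 0 by DESeq2), against 0.246% of all genes.

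IMA1ox roots with Fe had less XTH31 and XTH14 than WT, and XTH24 was higher. Of the 29 members, 4 were lower and 1 higher, against 16.7% of all genes tested that differed (9.63% lower and 7.09% higher). Without IMA1ox +Fe replicate 2, 3 members were called. XTH31 had 276, 268 and 266 CPM in IMA1ox +Fe, against 602, 572 and 509 CPM in WT +Fe. The IMA1ox libraries were close together and far below all WT libraries, with a log2 fold change of -1.05 ± 0.19 (edgeR adjusted p = 0.000386). XTH14 had 93.0, 85.7 and 106 CPM in IMA1ox +Fe, against 238, 170 and 163 CPM in WT +Fe, a change of -1.005 ± 0.18 (edgeR adjusted p = 0.000366). XTH15, known from growth in shade, had 72.1, 54.3 and 59.1 CPM in IMA1ox +Fe, against 93.1, 82.9 and 92.7 CPM in WT +Fe. The groups of XTH14 and those of XTH15 did not overlap, and XTH15 changed by -0.53 ± 0.14 (edgeR adjusted p = 0.00774), or -0.45 and not past the test without IMA1ox +Fe replicate 2. XTH26 had 17.4, 14.4 and 17.7 CPM in IMA1ox +Fe, against 46.1, 33.7 and 26.2 CPM in WT +Fe, also without overlap. Its change of -1.10 ± 0.34 (edgeR adjusted p = 0.0283) lost the call without WT +Fe replicate 1 (-0.87) or 2 (-1.14), or without IMA1ox +Fe replicate 1 (-1.14), 2 (-1.01) or 3 (-1.16). XTH12 and XTH13 changed by -0.74 ± 0.37 and -0.41 ± 0.32, not past the test. XTH22 (1.13) was called too without the 2 libraries that stood apart.

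Root hair markers were lower in IMA1ox +Fe, as XTH14 and XTH26 were, while XTH12 and XTH13 did not pass the test. In IMA1ox +Fe 6 of the 8 were lower than in WT +Fe and none was higher, with summed levels of 377 to 454 CPM in IMA1ox +Fe, against 584 to 831 CPM in WT +Fe. Of the 5 endodermis markers 4 were lower, at 93.2 to 106 summed CPM in IMA1ox +Fe, against 135 to 148 CPM in WT +Fe. Of the 11 green shoot markers 3 were lower, at 88.0 to 120 summed CPM in IMA1ox +Fe, against 162 to 213 CPM in WT +Fe. Of all genes, 9.63% were lower in this comparison. Stele markers summed to 173 to 181 CPM in IMA1ox +Fe, against 181 to 187 CPM in WT +Fe, with overlap. Root cap markers summed to 26.5 to 28.9 CPM in IMA1ox +Fe, against 16.7 to 23.2 CPM in WT +Fe, without overlap. The part of all these markers in the differences was not tested.

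XTH24 (AT4G30270) was the member that was higher. It had 55.3, 39.7 and 31.1 CPM in IMA1ox +Fe, against 21.2, 22.1 and 19.4 CPM in WT +Fe, and 30.9, 36.02 and 28.996 CPM in IMA1ox -Fe, against 12.9, 18.3 and 18.9 CPM in WT -Fe. With flg22 it had 44.2, 62.9 and 53.5 CPM in IMA1ox -Fe, against 14.7, 17.5 and 16.2 CPM in WT -Fe, and 51.9, 50.2 and 50.6 CPM in IMA1ox +Fe, against 12.3, 9.88 and 12.2 CPM in WT +Fe. In each of the 4 treatments the lowest IMA1ox library was above the highest WT library. The log2 fold changes were 1.01 ± 0.21 in +Fe, 0.94 ± 0.22 in -Fe, 2.15 ± 0.23 in +Fe with flg22 and 1.73 ± 0.22 in -Fe with flg22 (edgeR adjusted p from 4.32e-07 to 0.00574), and each held whichever library was left out.

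**Figure D5:**
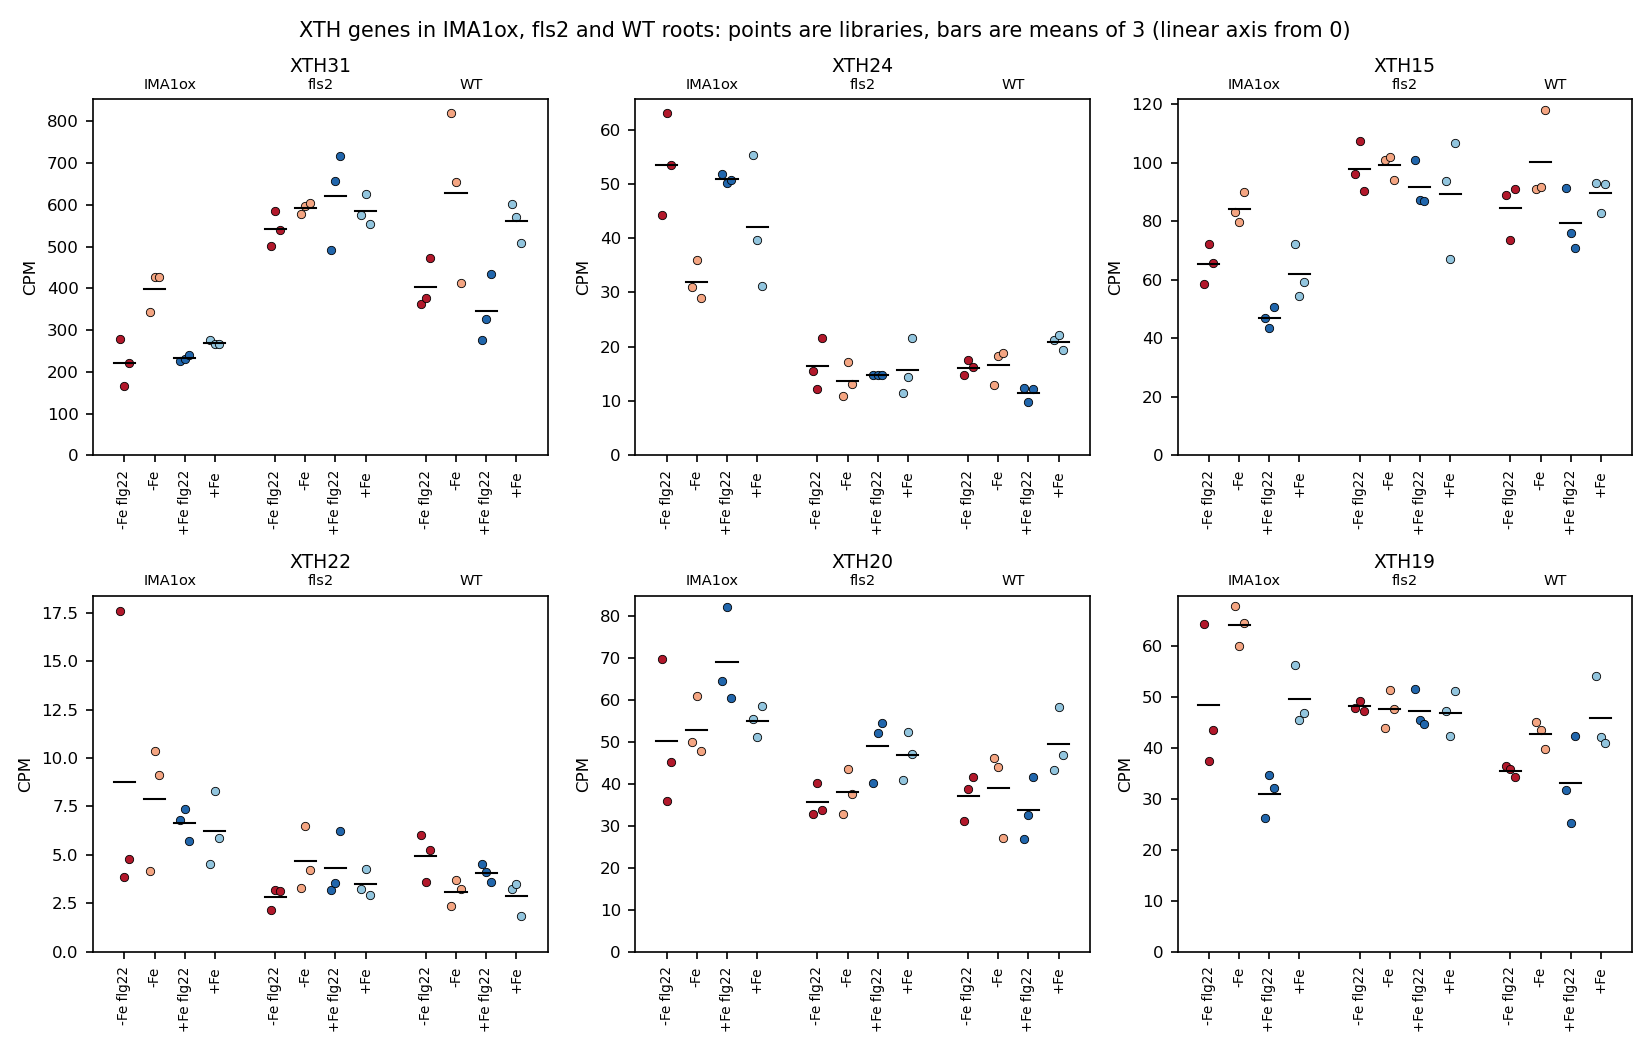
CPM of XTH31, XTH24, XTH15, XTH22, XTH20 and XTH19 in each of the 36 libraries, on linear axes from 0. Points are libraries and bars are means of 3. XTH31 is lower and XTH24 higher in IMA1ox than in WT in the groups of matching treatment, and XTH22 and XTH19 have 1 high library in IMA1ox -Fe with flg22.

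Without Fe, IMA1ox and WT differed in 4 members (3 higher and 1 lower), against 11.9% of all genes (4.15% higher and 7.76% lower). Scaling by library totals alone gave 6 higher and 1 lower. Besides XTH24, XTH19 had 67.8, 60.0 and 64.5 CPM in IMA1ox -Fe, against 45.1, 43.5 and 39.8 CPM in WT -Fe, without overlap, a change of 0.58 ± 0.16 (edgeR adjusted p = 0.0162). It lost the call without WT -Fe replicate 3 (0.54) or IMA1ox -Fe replicate 1 (0.54). XTH31 had 344, 427 and 427 CPM in IMA1ox -Fe, against 821, 655 and 414 CPM in WT -Fe, where the third WT library overlapped IMA1ox. Its change of -0.66 ± 0.19 (edgeR adjusted p = 0.025) lost the call without WT -Fe replicate 1 (-0.43) or 2 (-0.64), or without IMA1ox -Fe replicate 1 (-0.56). XTH22, the touch-induced gene also called TCH4, had 4.16, 10.4 and 9.14 CPM in IMA1ox -Fe, against 2.36, 3.73 and 3.24 CPM in WT -Fe, with no overlap. It changed by 1.34 ± 0.44 (edgeR adjusted p = 0.049) and lost the call without any 1 of the 3 WT -Fe libraries (1.16 to 1.48), without IMA1ox -Fe replicate 2 (1.099) or 3 (1.21), or with the replicate block (1.34, adjusted p = 0.0587). With only the 2 groups compared in the edgeR fit, XTH31 and XTH22 lost their calls (adjusted p = 0.235 and 0.0886), and without the 2 libraries that stood apart XTH32 passed (-0.55, adjusted p = 0.0303).

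XTH14 and XTH26 rose with Fe deficiency in IMA1ox and did not pass the test in WT. In IMA1ox -Fe, XTH14 had 178, 199 and 174 CPM, against 93.0, 85.7 and 106 CPM in IMA1ox +Fe, and XTH26 had 47.7, 58.1 and 42.0 CPM, against 17.4, 14.4 and 17.7 CPM in IMA1ox +Fe. The groups did not overlap. The log2 fold changes were 0.95 ± 0.18 and 1.58 ± 0.34 (edgeR adjusted p = 0.00209 and 0.00668), against -0.20 ± 0.18 for XTH14 and -0.36 ± 0.33 for XTH26 in WT. The Fe deficiency effect differed between IMA1ox and WT by 1.15 ± 0.26 for XTH14 and 1.94 ± 0.48 for XTH26 (edgeR adjusted p = 0.00825 and 0.0184), which is 2 of 29 members, against 4.02% of all genes (1.71% higher). For XTH26 the difference was not past the test without WT +Fe replicate 1 (1.70), WT -Fe replicate 2 (1.86) or IMA1ox -Fe replicate 2 (1.80).

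Beside these, XTH4 changed by 0.46 ± 0.12 for Fe deficiency in IMA1ox (edgeR adjusted p = 0.0179), which made 3 of 29 members higher, against 4.29% of all genes (1.9% higher). XTH4 had 135, 141 and 148 CPM in IMA1ox -Fe, against 107, 108 and 92.3 CPM in IMA1ox +Fe, and lost its call without IMA1ox +Fe replicate 3 (0.39) or IMA1ox -Fe replicate 2 (0.46) or 3 (0.43). XTH13 (0.79), XTH15 (0.45) and XTH31 (0.56) passed too without the 2 libraries that stood apart. Of the root hair markers 5 of 8 were higher for Fe deficiency in IMA1ox, at 664 to 709.9 summed CPM in IMA1ox -Fe, against 377 to 454 CPM in IMA1ox +Fe, and of the endodermis markers 3 of 5. Stele markers summed to 176 to 180 CPM in IMA1ox -Fe, against 173 to 181 CPM in IMA1ox +Fe. Root cap markers summed to 27.3 to 29.7 CPM in IMA1ox -Fe, against 26.5 to 28.9 CPM in IMA1ox +Fe. The part of all these markers in the XTH changes was not tested.

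In IMA1ox, flg22 lowered 15 members and raised 1 with Fe, 55.2% of those tested, against 43.4% of all genes (20.4% fell and 23% rose). Without Fe it lowered 18 and raised 4, 75.9% of those tested, against 45.5% of all genes (21.5% fell and 24% rose). All 15 members that fell with Fe were among the 18. The smaller calls depended on single libraries. With Fe, XTH15 and XTH16 lost theirs without IMA1ox +Fe replicate 1 (-0.27 and -0.60) or replicate 1 (-0.40 and -0.76) or 2 (-0.35 and -0.72) of the flg22 group, and XTH7 without IMA1ox +Fe replicate 2 (-0.66) or 3 (-0.96) or any 1 flg22 library (-0.80 to -1.01), and with the replicate block (-0.90, adjusted p = 0.0559). Without Fe, XTH15 lost its call without replicate 1 or 3 of IMA1ox -Fe or of the flg22 group (-0.31 to -0.38), or without the 2 libraries that stood apart (-0.29). XTH16 and XTH19 lost theirs without IMA1ox -Fe replicate 1 or 3 or flg22 replicate 2 or 3 (-0.43 to -0.54 and -0.25 to -0.42). XTH18 lost its call there without any 1 IMA1ox -Fe library or flg22 replicate 1 or 3 (0.28 to 0.34), or without the 2 libraries that stood apart (0.35), and XTH23 without IMA1ox -Fe replicate 2 (-0.34) or flg22 replicate 2 (-0.37) or 3 (-0.46). The members XTH4, XTH5, XTH8, XTH9, XTH12, XTH13, XTH14, XTH17, XTH21, XTH26 and XTH33 fell in all 4 flg22 comparisons of IMA1ox and WT, 11 of the 20 that fell in any. Such sharing between flg22 comparisons was not counted over all genes, so it is not read as particular to the family. XTH2, XTH30 and XTH32 were called in none of the 25 comparisons with the settings reported here. Under other settings XTH32 passed for flg22 in IMA1ox -Fe (-0.48 with library totals alone, -0.44 by DESeq2 and -0.43 without the 2 libraries that stood apart), and XTH2 for flg22 in WT +Fe (2.06 with the replicate block and 1.99 without the 2 libraries). With only the groups compared in the fit, XTH32 passed for flg22 in WT +Fe (-0.37) and IMA1ox -Fe (-0.44) and for IMA1ox against WT +Fe (-0.29), and XTH30 for Fe deficiency in fls2 with flg22 (-0.21).

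XTH17 had 2.99, 2.55 and 2.98 CPM in IMA1ox +Fe with flg22, against 53.4, 42.6 and 49.8 CPM in IMA1ox +Fe, a log2 fold change of -4.10 ± 0.52 (edgeR adjusted p = 3.48e-06). In IMA1ox -Fe it had 28.2, 3.38 and 4.77 CPM with flg22, against 78.7, 66.1 and 70.5 CPM without. The library at 28.2 CPM is the one in which FRK1 was also low. The change was -2.57 ± 0.43 with it and -4.15 without it. The same library was the highest of its group for the root hair members. XTH12 had 16.7, 2.30 and 5.41 CPM in IMA1ox -Fe with flg22, against 35.9, 45.8 and 35.7 CPM in IMA1ox -Fe, and XTH13 had 11.7, 2.86 and 3.15 CPM, against 26.4, 29.6 and 25.4 CPM. Leaving it out took the log2 fold changes in IMA1ox -Fe to -3.35 for XTH12 (-2.26 ± 0.40 with it), to -3.19 for XTH13 (-2.20 ± 0.34), to -2.53 for XTH26 (-1.84 ± 0.35) and to -1.76 for XTH21 (-1.09 ± 0.23). With only the 2 groups compared in the fit and that library kept, the calls of XTH17, XTH12, XTH13 and XTH21 were lost (adjusted p = 0.099, 0.0781, 0.0515 and 0.138). Of all genes, 21.5% fell for flg22 in IMA1ox -Fe and 20.4% in IMA1ox +Fe. Root hair markers fell for 8 of 8 genes in IMA1ox -Fe and 6 of 8 in IMA1ox +Fe, and endodermis markers for 5 of 5 in both. Their summed levels were 189 to 402 and 77.3 to 98.9 CPM in IMA1ox -Fe with flg22, against 664 to 709.9 and 138 to 151 CPM in IMA1ox -Fe. Stele markers summed to 170 to 177 CPM in IMA1ox -Fe with flg22, against 176 to 180 CPM in IMA1ox -Fe. In IMA1ox +Fe they summed to 174 to 188 CPM with flg22, against 173 to 181 CPM without. Root cap markers summed to 23.2 to 28.7 CPM in IMA1ox -Fe with flg22, against 27.3 to 29.7 CPM without. In IMA1ox +Fe these were 19.2 to 23.1 CPM with flg22, against 26.5 to 28.9 CPM without.

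The flg22 effect in IMA1ox differed between -Fe and +Fe for no member by edgeR (5 at an unadjusted p under 0.05, 0 by DESeq2), against 0.177% of all genes. Without the 2 libraries that stood apart, 4 members passed: XTH12 (-2.01), XTH13 (-2.01), XTH14 (-1.19) and XTH31 (-0.83), each with the larger fall in -Fe. The flg22 effect differed between IMA1ox and WT for no member by edgeR in +Fe (7 at an unadjusted p under 0.05) or in -Fe (3), against 0.865% and 2.87% of all genes. Without the 2 libraries that stood apart, XTH33 passed in +Fe (-1.10, edgeR adjusted p = 0.0286) and XTH14 in -Fe (-1.14, adjusted p = 0.00828). DESeq2 called 3 in +Fe, namely XTH24 (1.14), XTH33 (-1.10) and XTH18 (-0.61), and 0 in -Fe. For XTH24 the flg22 change was 0.27 ± 0.21 in IMA1ox +Fe, not past the test, against -0.86 ± 0.23 in WT +Fe, and 0.75 ± 0.21 in IMA1ox -Fe (edgeR adjusted p = 0.00497), against -0.05 ± 0.23 in WT -Fe, not past the test. The edgeR differences were 1.14 ± 0.31 in +Fe and 0.79 ± 0.31 in -Fe (adjusted p = 0.0822 and 0.19), so that neither passed.

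XTH33 changed for flg22 in IMA1ox +Fe by -1.70 ± 0.22 (edgeR adjusted p = 1.79e-06), and fell by 1.23 ± 0.20 in -Fe. XTH29 had 25 counts over the 3 libraries of IMA1ox -Fe with flg22 and 0 counts in IMA1ox -Fe, so it was at least 8.16-fold higher on a floor of 3 counts over the group. Its call was lost without replicate 2 of the flg22 group, which held 19 of the 25 counts. XTH6 had 11 counts in WT -Fe with flg22 and 3 in WT -Fe, a ratio of 3.59 with a 95% counting interval of 0.949 to 20.1, and XTH25 had at most 5 counts in any group.

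With flg22, IMA1ox differed from WT in 10 members in +Fe (4 higher and 6 lower), against 14.5% of all genes (7.05% higher and 7.44% lower), and in 4 in -Fe (2 each way), against 10.3% (4.44% higher and 5.88% lower). Scaling by library totals alone gave 4 higher and 3 lower in +Fe. Leaving out replicate 1 or 2 of IMA1ox +Fe with flg22 gave 6 called members in +Fe, and leaving out replicate 1 or 3 of WT -Fe with flg22 gave 2 in -Fe. Apart from XTH24, the members that kept their call in +Fe whichever library was left out were XTH20 (1.04 ± 0.22), XTH14 (-0.84 ± 0.18), XTH15 (-0.76 ± 0.14) and XTH33 (-1.10 ± 0.23). XTH20, of the vascular zone of the root, had 64.5, 82.1 and 60.5 CPM in IMA1ox +Fe with flg22, against 26.8, 32.5 and 41.7 CPM in WT +Fe with flg22, so that every IMA1ox library was above every WT library. In -Fe with flg22, XTH31 had 280, 165 and 222 CPM in IMA1ox, against 362, 377 and 473 CPM in WT, also without overlap, a change of -0.86 ± 0.19 (edgeR adjusted p = 0.00406). XTH4, called at 0.42 in -Fe with flg22, was 0.20 and not past the test without the 2 libraries that stood apart. With only the 2 groups compared in the edgeR fit, XTH31, XTH4 and XTH14 lost their calls in -Fe with flg22 (adjusted p = 0.0729, 0.334 and 0.303). Root hair markers were lower in IMA1ox with flg22 for 5 of 8 genes in both media, at 189 to 402 summed CPM in IMA1ox -Fe with flg22, against 359.9 to 417 CPM in WT, and 238 to 277 CPM in IMA1ox +Fe with flg22, against 318 to 509.5 CPM in WT. Green shoot markers were lower for 8 of 11 genes in -Fe, at 112 to 158 summed CPM in IMA1ox, against 218 to 491 CPM in WT, and for 4 of 11 in +Fe, at 125 to 172 CPM in IMA1ox, against 228 to 334 CPM in WT. No endodermis marker passed in either medium by edgeR (0 and 3 of 5 at an unadjusted p under 0.05 in -Fe and +Fe). The summed levels of stele markers and of root cap markers overlapped between IMA1ox and WT with flg22 in both media. The part of all these markers in the differences was not tested.

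Fe deficiency in IMA1ox with flg22 raised XTH18 by 0.76 ± 0.13 on the log2 scale (edgeR adjusted p = 0.00157), one of 3 members called, against 2.26% of all genes (0.884% higher). The others, XTH17 (2.09 ± 0.55) and XTH19 (0.64 ± 0.16), were 0.51 and 0.37 and not past the test without the library in which FRK1 was low. Without the 2 libraries that stood apart, XTH15 passed as higher (0.55, edgeR adjusted p = 0.0466). There XTH20 (-0.77) and XTH13 (-1.22) passed as lower (edgeR adjusted p = 0.0328 and 0.0466). XTH17 also lost its call without any 1 library of IMA1ox +Fe with flg22 (2.02 to 2.13), and XTH19 without replicate 1 (0.53) or 3 (0.67) of that group. Neither call held with only the 2 groups compared in the edgeR fit (adjusted p = 0.506 for XTH17 and 0.318 for XTH19).

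Genes that synthesise or trim xyloglucan, and alpha-expansins, are given beside the XTHs without a test between the lists. Of 17 genes that synthesise or trim xyloglucan, 8 fell and 1 rose for flg22 in WT +Fe, 52.9% of them against 40.1% of all genes, with a median log2 fold change of -0.18. The largest falls were those of XYL1, a xylosidase (-0.60 ± 0.07), BGAL10, a galactosidase (-0.60 ± 0.08), and AXY8, a fucosidase (-0.55 ± 0.07), all of which trim xyloglucan side chains. AXY4, which acetylates xyloglucan, rose by 0.13 ± 0.05 (edgeR adjusted p = 0.0499). In WT -Fe 8 fell and 0 rose (47.1%, against 35% of all genes), in IMA1ox 12 fell and 0 rose in either medium (70.6%, against 43.4% with Fe and 45.5% without), and in fls2 none passed by edgeR (0 at an unadjusted p under 0.05). Alpha-expansins loosen the wall without cutting xyloglucan, and 17 of 20 were tested. With flg22 in WT +Fe 4 rose, led by EXPA5 (3.59 ± 0.71), EXPA17 (2.06 ± 0.34) and EXPA8 (0.998 ± 0.34), and 4 fell, led by EXPA10 (-1.36 ± 0.43), EXPA15 (-1.30 ± 0.30) and EXPA4 (-1.04 ± 0.27), with a median of -0.01. These 8 were 47.1% of those tested, against 40.1% of all genes. In WT -Fe 3 rose and 6 fell, 52.9% against 35% of all genes.

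Several members lie side by side in the genome. XTH24, XTH18 and XTH19, and likewise XTH23 and XTH14, and XTH1 and XTH2, are neighbours on chromosome 4, and XTH13, XTH25 and XTH22 are neighbours on chromosome 5. Within the run of XTH24, XTH18 and XTH19 the changes for flg22 in WT +Fe differed, since XTH18 rose and XTH24 fell. XTH19 was lower too, by a call that rested on single libraries. Of the neighbours XTH23 and XTH14, XTH14 fell, and XTH23 fell by DESeq2 (-0.51, adjusted p = 0.035) without passing the main edgeR test. Exact matches of 50 bases between the longest transcripts of members were few. Inexact matches and other loci were not searched, so this count does not cover all reads that could be shared. Of the 50-base windows of the XTH18 transcript, 1.57% also occur in that of XTH19, and 0.171% of those of XTH17 occur in XTH19, while no other pair of members shared a window.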

How the data were processed

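RNA-seq read counts per gene were deposited for 36 root libraries in 12 groups of 3. The deposited table holds whole-number counts that were not normalized, judged from the values. STAR 2.7.0a, edgeR 3.36.0 and the build TAIR10 are named in the submitters' processing notes, without their roles. The counting tool, its strand setting and any filter by the authors are not given in the sources used here. Overlapping or antisense reads could therefore not be told apart.

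Counts were tested with edgeR 4.0.16 (limma 3.58.1, R 4.3.3), using TMM scaling, a filter on low counts (filterByExpr with a minimum count of 10) and 1 mean per group over all 36 libraries, so that all groups share an estimate of the spread. Quasi-likelihood tests of 25 comparisons were adjusted by Benjamini-Hochberg over 20354 genes, with a threshold of 0.05. Standard errors (±) of log2 fold changes are from this fit, and other ± values are SDs. CPM used TMM-scaled library sizes, and CPM per kb the longest RefSeq (TAIR10.1) transcript. Totals of 28130566 to 40903411 counts set the precision, and intervals and floors cover counting error only. The fits were tested on simulated data with 200 changed genes. The test for flg22 in WT +Fe recovered 79% of 1.5-fold and 93% of 2-fold changes, with 3 false calls. The test of the flg22 effect in fls2 against WT +Fe recovered 54% and 80%, with 8 false calls. Differences of effects of such sizes could therefore be missed.

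Alternatives were DESeq2 1.42.0 and its size factors, library totals, no filter, only the groups compared, a replicate block, each library left out and, added after the data were seen, the 2 libraries least like their group left out. Replicate numbers were not shown to pair the samples by the rule used (every correlation over 0.1), since 198 same-numbered pairs had correlations from -0.277 to 0.332 (median 0.0231). The members, gene lists and tests were chosen with earlier results of these data known, and any member could be named. Values in every library are given for members called with at least a 2-fold change for flg22 in WT and for those called for Fe deficiency in WT or for IMA1ox against WT without flg22, and other lists are given as counts with at most the 3 largest changes each way. Sequences are not shown.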

Additional observations from a re-analysis of the deposited data

Results flagged for a closer look

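The flg22 effect differed between fls2 and WT beyond the edgeR threshold for 13 XTH genes with Fe and 8 without, and the Fe deficiency effect differed between IMA1ox and WT for 2. Each was picked out by the test of the difference itself, and positive values on the log2 scale mean a higher effect in the mutant or transgenic line. With Fe, the fls2 differences were 3.67 for XTH17, 2.19 for XTH12, 1.82 for XTH13, 1.78 for XTH26, 1.59 for XTH5, 1.57 for XTH21, 1.08 for XTH33, 0.97 for XTH4, 0.85 for XTH14, 0.79 for XTH31, 0.54 for XTH8, 0.52 for XTH9 and -2.41 for XTH11. Without Fe they were 3.47 for XTH17, 1.79 for XTH5, 1.47 for XTH13, 1.28 for XTH21, 1.02 for XTH4, 1.02 for XTH16, 0.66 for XTH8 and 0.54 for XTH9. The Fe deficiency differences were 1.94 for XTH26 and 1.15 for XTH14.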

How the results depend on the processing

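Of 130 calls of a member in a comparison, none changed sign under any alternative, and 83 held in every fit that left out 1 library. The other settings lost 0 calls (DESeq2's size factors in edgeR), 4 (library totals), 7 (no filter), 4 (replicate block), 26 of 126 (only the groups compared), 6 (without the 2 libraries least like their group, chosen after the data were seen) and 1 (DESeq2). Values below are numbers of members called, with the value over all libraries in parentheses; the causes were not tested.

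Library totals gave 7 (4) for IMA1ox against WT -Fe. Fitting only the groups compared gave 8 (2) for Fe deficiency in fls2 with flg22, 10 (3) in IMA1ox, 1 (3) in IMA1ox with flg22, 7 (4) and 1 (4) for IMA1ox against WT in -Fe without and with flg22, 13 (8) for the flg22 effect in fls2 against WT -Fe and 4 (2) for the Fe deficiency effect in IMA1ox against WT. Without the 2 libraries the counts were 0 (1) for Fe deficiency in WT, 4 (2) in fls2 with flg22 and 6 (3) in IMA1ox, 4 (0) for the flg22 effect in IMA1ox -Fe against +Fe, and 1 (0) and 1 (0) for the flg22 effect in IMA1ox against WT in +Fe and -Fe. DESeq2 gave 5 (3) for Fe deficiency in IMA1ox, 7 (4) for IMA1ox against WT -Fe and 3 (0) for the flg22 effect in IMA1ox against WT +Fe.

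Leaving out 1 library gave 15 to 23 (20) for flg22 in WT +Fe, 13 to 19 (17) in WT -Fe, 13 to 15 (16) in IMA1ox +Fe and 18 to 21 (22) in IMA1ox -Fe. For Fe deficiency it gave 0 to 1 (1) in WT, 0 to 1 (0) in WT with flg22, 1 to 2 (2) in fls2 with flg22, 2 to 4 (3) in IMA1ox and 1 to 4 (3) in IMA1ox with flg22. For IMA1ox against WT it gave 3 to 5 (5) in +Fe, 3 in each fit (4) in -Fe, 6 to 8 (10) in +Fe with flg22 and 2 to 5 (4) in -Fe with flg22. The difference in flg22 effect gave 8 to 14 (13; 8 without WT +Fe flg22 replicate 1) for fls2 against WT +Fe, 5 to 9 (8; 5 without fls2 -Fe replicate 3) in -Fe, 0 to 1 (0) for IMA1ox against WT in either medium, and 0 to 3 (0; 3 without IMA1ox -Fe flg22 replicate 1) for -Fe against +Fe in IMA1ox. The Fe deficiency effect in IMA1ox against WT gave 1 to 2 (2).

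Replicate numbers were not shown to pair samples, since 36 of 198 same-numbered pairs correlated above 0.1. In 81 of the 198 pairs the first sample correlated best with its own number. The rule asks for every pair, so it cannot exclude pairing among part of the samples. With the replicate block the counts were 22 (20) for flg22 in WT +Fe, 16 (17) in WT -Fe, 15 (16) in IMA1ox +Fe and 22 (22) in IMA1ox -Fe, and none of the 25 counts moved by over 1.5 times. The block ended the calls of XTH29 for flg22 in WT -Fe (2.61), XTH7 for flg22 in IMA1ox +Fe (-0.90), XTH22 for IMA1ox against WT -Fe (1.34) and XTH31 for IMA1ox against WT +Fe with flg22 (-0.57). Library totals moved the median of all genes by at most 0.067 on the log2 scale. Depth limits XTH2, XTH6, XTH11, XTH25 and XTH29, which had few counts in every group.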
